A study of Felis catus with 25 samples.

Results

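The comparison set 5 libraries of cat corneal fibroblasts treated with UK-5099 (UK) beside 5 treated with troglitazone (Trog), all harvested at day 5. Every library with either title was used, 10 of the 25 in the series, and polyadenylated RNA was read as counts of sequencing reads per gene. Cells of both groups had first received transforming growth factor beta 1 (TGFb1) at 1 ng/ml for 2 days. TGFb1 was then taken away and the drug was given for 3 days, at 30 uM for UK-5099 and at 7.5 uM for troglitazone. The doses thus differed, and no cells kept to day 5 without a drug were analysed here, so each value sets one drug beside the other and not beside untreated cells of the same age. The other 15 libraries were untreated cells of day 0 (FB), cells after the 2 days with TGFb1 (TGFb) and cells given troglitazone with GW9662, an antagonist of the receptor PPAR-gamma (TrogGW). They entered the estimate of the spread between libraries, and the FB and TGFb levels are given where they help to place a value. The labels speak of biological replicates. Whether each came from its own culture or animal is not stated. The p-values set group differences against the spread between libraries of a group, which may be technical.

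Corneal fibroblasts are the cells of the corneal stroma. In a healing cornea TGFb1 turns them into myofibroblasts, which contract through smooth muscle actin and lay down collagen, and which can leave a scar. UK-5099 blocks the mitochondrial pyruvate carrier, a complex of the MPC1 and MPC2 proteins that brings pyruvate from glycolysis into mitochondria. Troglitazone is a thiazolidinedione, a ligand of the nuclear receptor PPAR-gamma, which is best known as the driver of fat cell genes, and thiazolidinediones have also been reported to bind the pyruvate carrier.

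UK replicate 5 (UK 5) stood apart from every other library. Across the 10699 tested genes its log2 CPM (counts per 1 M, scaled for library composition) correlated at 0.852 to 0.868 with UK 1 to UK 4, whereas UK 1 to UK 4 correlated at 0.991 to 0.994 with each other and the Trog libraries at 0.993 to 0.995. With the Trog libraries UK 5 correlated at 0.786 to 0.807 and UK 1 to UK 4 at 0.915 to 0.938. UK 5 also had the fewest counts, 14.8 M against 20.3 to 25.2 M in the other UK libraries and 18.2 to 22.6 M in Trog. It differed by over 1 log2 unit from the mean of the other UK libraries at 53.4% of genes. The deviation followed gene size: among genes sorted by genomic span its median was 0.97 in the bin of shortest genes, of 5 equal bins (median span 5.51 kb) and -1.20 in the longest (163 kb), with a Spearman correlation of -0.448 over 10619 genes. Among genes of at least 10 CPM, the 10 with the largest excess in UK 5 were U3, ATP5ME, CHCHD7, COMMD6, ROMO1, NDUFB2, CMC1, ATP5PD, LSM8 and RPL24, many of them short genes of mitochondria and ribosomes. The 10 with the largest deficit were DTX4, PLAGL2, TMED8, SMCR8, MGAT5, SLC26A2, TRIM56, NCOA2, ZBED6 and ASXL2. What set UK 5 apart was not tested, and results are given with and without it.

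**Figure D1:**
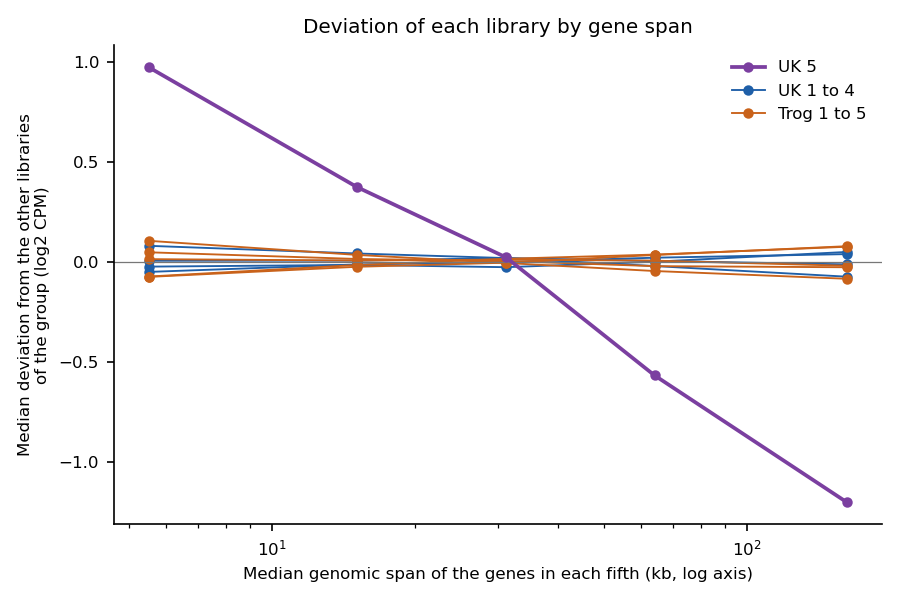
Median deviation of log2 CPM of each UK and Trog library from the mean of the other libraries of its group (UK 5 not used as a reference), for genes in 5 equal bins of genomic span, plotted at the median span of the bin in kb on a log axis. UK 5 ran between 0.97 in the bin of shortest genes and -1.20 in the longest, while no median of the other libraries was farther from 0 than 0.104.

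The fibroblast identity given by the labels was checked with marker genes. Of 12 fibroblast markers 11 were in the files and each had counts in both groups, but their summed level was 69532 to 118983 per 1 M counts in UK (106687 to 118983 without UK 5) and 4836 to 7275 in Trog. That sum holds COL1A1, COL1A2 and COL3A1, which are among the results below, and in bulk RNA fewer cells of a type and less RNA per cell cannot be told apart. By the test below, 8 of 10 tested fibroblast markers were higher and 2 lower in UK (8 and 2 without UK 5), so these markers did not all move together. Corneal epithelial markers summed to 0.599 to 2.77 in UK (0.599 to 1.03 without UK 5) and 2.2 to 3.64 in Trog, with KRT3, KRT12, TP63 and KRT18 at 0 in both. KRT5, KRT14, KRT15 and CDH1 of that set were not in the files. Immune cell markers summed to 23.7 to 29.6 in UK and 38.2 to 47.3 in Trog, with PTPRC, CD3D, MS4A1 and TYROBP at 0 in both. Adipocyte markers summed to 14.0 to 15.9 in UK (14.9 to 15.9 without UK 5) and 52.6 to 70.3 in Trog, with ADIPOQ and PPARG at 0 in both. That sum holds FABP4, at a mean of 38.2 CPM in Trog and 1.95 CPM in UK. The set did not move as one: by the test below, 2 of 5 tested adipocyte markers were higher and 1 lower in UK (2 and 2 without UK 5). The sums for vascular endothelium were 28.7 to 163 in UK (142.9 to 163 without UK 5) and 81.2 to 100.5 in Trog, for melanocytes and Schwann cells 2.3 to 21.6 (15.8 to 21.6 without UK 5) and 17.5 to 23.8, and for corneal endothelium 682 to 1990.0 (1684 to 1990.0 without UK 5) and 1721 to 1895. The part of other cells in the gene changes was not tested.

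Most tested genes differed between the drugs in the fit of all 25 libraries. With all libraries, 6534 of 10699 genes (61.1%) changed at an adjusted p under 0.05 (edgeR quasi-likelihood F test, p-values adjusted by Benjamini-Hochberg, BH), which is the meaning of higher, lower, rose and fell for single genes below. In UK 3517 genes (32.9%) were higher and 3017 (28.2%) lower than in Trog, with a median log2 fold change of 0.04 over all tested genes. Without UK 5, 8111 of 10798 genes (75.1%) changed, 4017 (37.2%) higher and 4094 (37.9%) lower, with a median of -0.01. The counts also depend on the other groups, which share the estimate of the spread. A fit of only UK and Trog called fewer, 4375 of 10143 genes, and 7752 of 10233 without UK 5. A count of called members of a gene group therefore has to be read against a background in which about as many genes moved each way. Among the 10699 genes tested in both fits, 6213 were called in both with the same sign, 3224 higher and 2989 lower. LSM8 and NDUFA2 were called with opposite signs, 319 genes only with UK 5 and 1866 only without it. The levels of the 5 UK and 5 Trog libraries did not overlap for 4707 genes (44.0%), and without UK 5 for 6857 (64.1%). All these counts rest on TMM scaling, which assumes that most genes keep their level. Scaled by library totals alone, the median moved to -0.41, 1790 genes were higher and 5339 were lower, so that higher genes made up 25.1% of the calls in place of 53.8%. List counts by library totals have to be read against those 1790 and 5339 of 10699 genes. Fold changes are log2, UK over Trog, ± SE. They are TMM-scaled with no median subtracted, and a value in square brackets is the same fold change without UK 5.

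**Figure D2:**
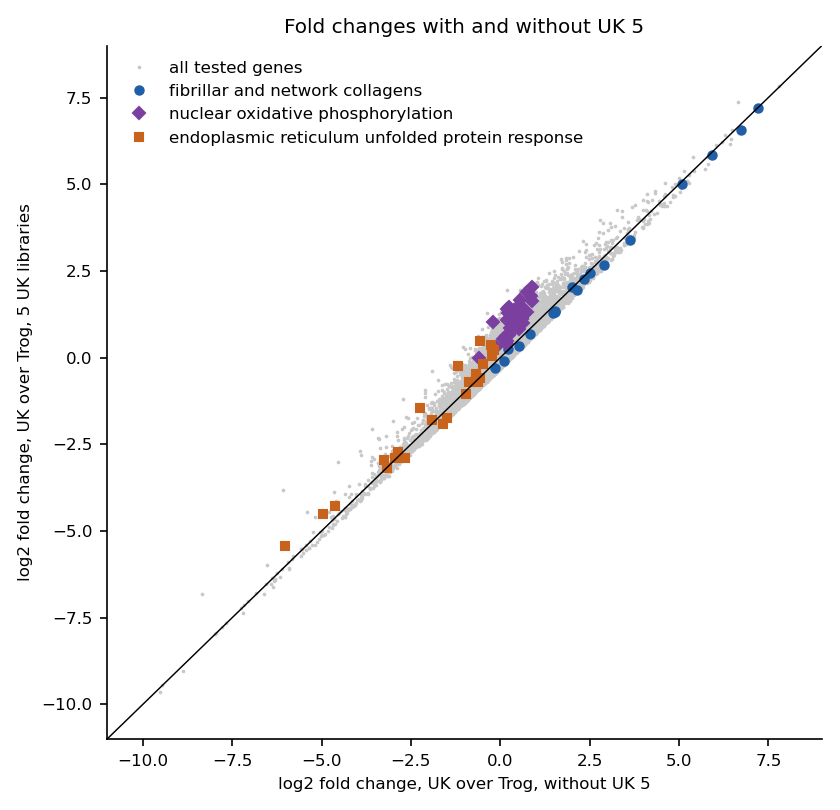
Log2 fold change of every tested gene, UK over Trog, without UK 5 (horizontal axis) and with all 5 UK libraries (vertical axis), with members of 3 gene lists marked and the line of equal values. The marked collagens lay close to the line, and the oxidative phosphorylation genes lay above it, with a median of 1.10 with UK 5 and 0.36 without.

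Of the genes of the drugs' named targets, those of the pyruvate carrier were detected and that of PPAR-gamma was not. MPC1, a subunit of the pyruvate carrier, was at 31.6, 32.5, 32.2, 31.6 and 75.8 CPM in UK 1 to 5, against 20.2, 19, 23, 19.2 and 22.7 CPM in Trog 1 to 5. All UK libraries lay above all Trog libraries, and UK 5 was more than 2-fold above the others of its group. The log2 fold change was 0.96 ± 0.176, and 0.62 ± 0.0666 without UK 5 (edgeR quasi-likelihood, BH-adjusted p = 5.61e-05 and 1.16e-09). MPC2, the other subunit, was at 47.4, 48.7, 45.6, 45.9 and 266 CPM in UK and 35.4, 40.5, 42.9, 36.3 and 43.4 CPM in Trog. Its rise of 1.19 ± 0.348 (edgeR BH-adjusted p = 0.00514) rested mostly on UK 5, and without that library was 0.24 ± 0.0571 (adjusted p = 0.00036). It did not pass with library totals alone (0.62, adjusted p = 0.0739) or in a fit of only UK and Trog (1.18, adjusted p = 0.0883). Both of those fits kept UK 5. Library totals without UK 5 were not fitted, so the rise of 0.24 was not checked against that scaling. MPC2 overlaps DCAF6 in the cat annotation, and with the strand setting not given its reads cannot be told from those of its neighbour. Of the 169 genes described, 73 overlap another gene of that annotation, 29 of them a gene with a name and not only an uncharacterised locus, and the same limit holds for each. Besides those whose neighbours are named in the text, the 29 are TIMP2, SLC25A12, TFB1M, HSD17B7, HADHA, FTH1, GLB1, NPC1, CDC6, PRC1, DIABLO, HSPA5, SLC16A3 and NDUFA2. PPARG, which encodes PPAR-gamma, had 0 counts in all UK and all Trog libraries. Its counted level thus lay under 0.0329 CPM in UK and 0.0245 CPM in Trog, the levels of 3 counts over a group. PPARG, which is not among the 169, also overlaps an uncharacterised locus. Reads of shared stretches may not have been counted for it, so the receptor's own level is not bounded by these values.

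Genes known to respond to PPAR-gamma moved both ways. FABP4, a fatty acid carrier of fat cells and macrophages, was at 0.711, 1.13, 0.463, 1.22 and 6.22 CPM in UK, against 46.7, 33.1, 38.9, 39.1 and 33.2 CPM in Trog. UK 5 held over 5 times the level of any other UK library, and all 5 lay far below Trog. The fold change was -4.46 ± 0.492, and -5.41 ± 0.202 without UK 5. This gene was picked after its values were seen. On the list of PPAR-gamma responsive and lipid droplet genes, 6 of 16 tested members were higher and 8 lower in UK (6 and 8 without UK 5, 4 and 9 by library totals), with a median log2 fold change of -0.78 (-0.69 without UK 5). Lower in UK were PDK4, an inhibitory kinase of pyruvate dehydrogenase (-3.36 [-3.35]), and the acyl-CoA synthetase ACSL1 (-2.70 [-2.46]). Higher in UK were the lipoprotein lipase LPL (1.66 [1.73]), the peroxisomal enzyme EHHADH (1.30 [1.31]) and the lipid droplet coat gene PLIN4 (5.08 [5.23]), which overlaps HDGFL2. PLIN4 was low in both groups, at 3.18 ± 1.17 CPM in UK and 0.0887 ± 0.0685 CPM in Trog (SD, n = 5).

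The largest rises in UK, among called genes of at least 10 CPM whose groups did not overlap, were mostly of matrix genes. ACKR4, a receptor that scavenges chemokines, was at 41, 38.1, 44.3, 40.9 and 45.5 CPM in UK, against 0.172, 0.154, 0.203, 0.298 and 0.0461 CPM in Trog, a fold change of 7.83 ± 0.21 [7.79]. The UK libraries, UK 5 among them, were close together and the Trog libraries were near 0. COL3A1, the chain of type III collagen, was at 242, 210.0, 228, 226 and 207 CPM in UK, against 0.472, 1.46, 2.27, 1.68 and 1.66 CPM in Trog (7.19 ± 0.331 [7.22]). COL11A1, a chain of type XI collagen, was at 260.1, 188, 239.8, 231 and 95.3 CPM in UK, against 1.2, 1.69, 3.81, 2.09 and 1.94 CPM in Trog (6.56 ± 0.332 [6.74]). Both were high in every UK library, and UK 5 was the lowest for each. COL1A1, which encodes the alpha 1 chain of type I collagen, was at 65072, 60622, 70108, 79727 and 49593 CPM in UK and 776, 1008, 1514, 1159.9 and 1190.4 CPM in Trog, with a fold change of 5.85 ± 0.25 [5.93]. The other rises of this rank were osteomodulin, OMD (6.17 [6.43]), and asporin, ASPN (5.89 [5.97]), both small leucine-rich proteins of the matrix, the membrane protein TM4SF1 (5.90 [5.98]) and the matrilin MATN2 (5.78 [5.79]). OMD and ASPN both lie within CENPP in the cat annotation, and ACKR4 lies within ACAD11, so their reads may be mixed with those of the longer genes, which differed far less (log2 fold changes of 0.73 and 0.48). Among these 8 genes the largest BH-adjusted p of the edgeR quasi-likelihood test was 1.1e-09. In TGFb the means were 61380 CPM for COL1A1, 240 for COL3A1 and 141 for TM4SF1, beside UK means of 65024.5, 222 and 137.5 CPM. For MATN2 the TGFb mean, 19.4 CPM, exceeded the UK mean, 11.9 CPM. The TGFb means of ACKR4 (0.996), COL11A1 (12.9), OMD (24.1) and ASPN (19.8) lay below the UK means. A rise here is thus one over Trog and not over the level before the drugs.

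The largest falls were of genes that were nearly silent in UK. KNG1, which encodes kininogen, had 1 count over the 5 UK libraries and 1649 over the 5 Trog libraries, where it was at 13, 13.7, 13.7, 11.9 and 15.4 CPM. It was 1228-fold higher in Trog, with a 95% counting interval of 220.2 to 48550 that covers counting error only. RSAD2, the interferon-induced antiviral protein viperin, had 3 counts in UK and 2498 in Trog, 620-fold higher in Trog (counting interval 212 to 3010). DGAT2, which makes triglycerides, was at 1.04, 1.03, 0.72, 0.496 and 0.549 CPM in UK, against 64.7, 73.8, 57.8, 60.9 and 68 CPM in Trog (-6.38 ± 0.164 [-6.31]). TENM4, a teneurin of the cell surface, was at 3.88, 3.33, 3.19, 4.38 and 0 CPM in UK, against 331, 283, 251, 346 and 302 CPM in Trog (-6.62 ± 0.377 [-6.35]). It was at 0 in UK 5, and the 4 other UK libraries were all far below Trog. The remaining falls of this rank were those of the adaptor GAB3 (-7.38 [-7.20]), the exchange factor family member ARFGEF3 (-6.81 [-6.62]), the vessel growth factor ANGPT2 (-5.82 [-5.82]), which overlaps MCPH1, and the cardiac troponin TNNT2 (-5.72 [-5.79]). For these 8 the largest BH-adjusted p of the edgeR quasi-likelihood test was 5.12e-13. Their means in TGFb were 0 CPM for KNG1 and RSAD2, 0.161 for ANGPT2, 0.699 for GAB3 and 0.819 for TNNT2. They were 1.25 for ARFGEF3, 2.42 for DGAT2 and 28.85 for TENM4. All 8 thus had a higher mean in Trog than before the drugs, set side by side without a test.

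**Figure D3:**
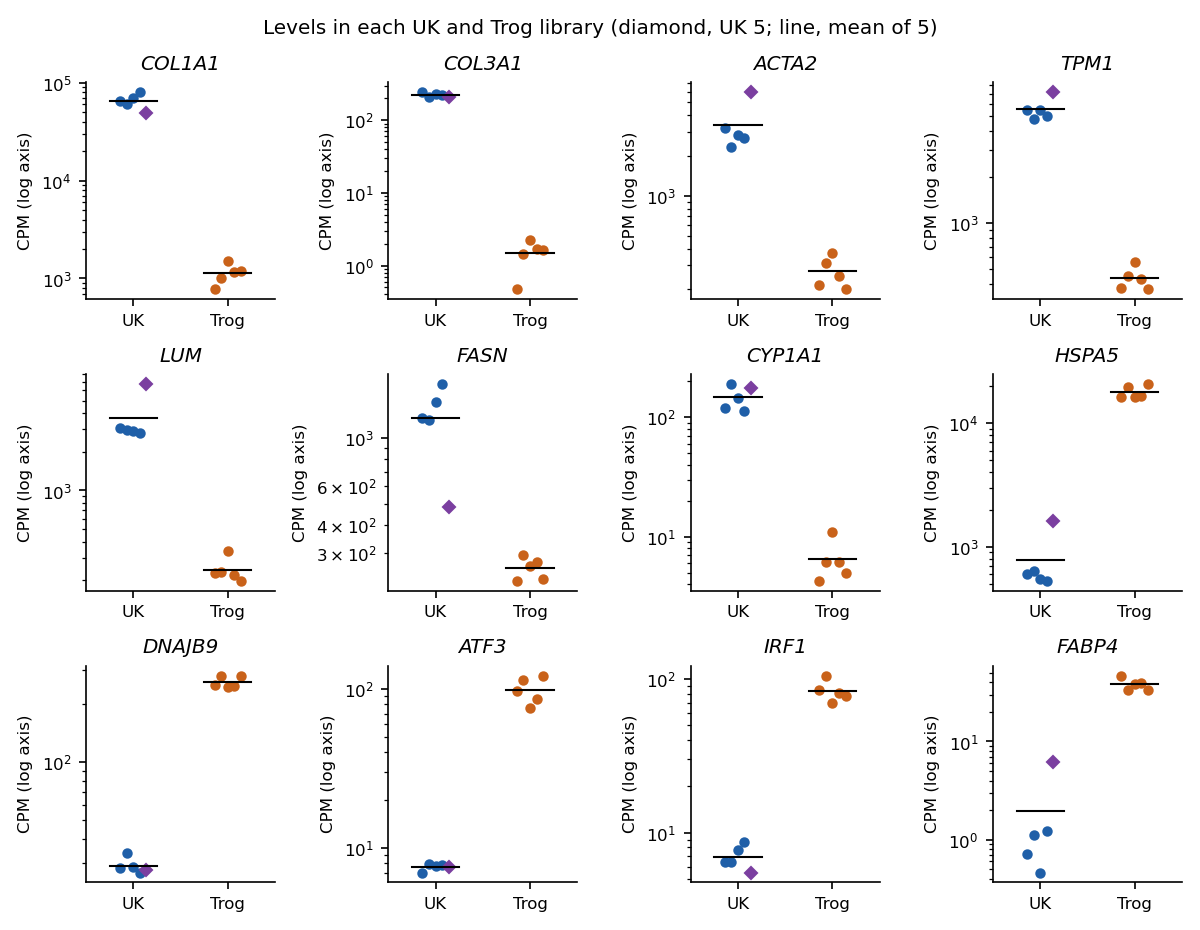
CPM of 12 genes in each UK and Trog library on log axes, with UK 5 as a diamond and the mean of 5 as a line. In each panel the UK libraries lie on one side of all Trog libraries, above them for COL1A1, COL3A1, ACTA2, TPM1, LUM, FASN and CYP1A1 and below them for HSPA5, DNAJB9, ATF3, IRF1 and FABP4.

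Most tested contractile genes were higher in UK. ACTA2, the smooth muscle actin that marks myofibroblasts, was at 3234, 2305, 2848, 2696 and 5958 CPM in UK, against 212, 315, 374, 249.7 and 198 CPM in Trog. The groups did not overlap, and UK 5 was the highest. The fold change was 3.66 ± 0.508, and 3.36 ± 0.365 without UK 5 (edgeR quasi-likelihood, BH-adjusted p = 1.38e-06 and 1.52e-09). The UK mean was 3408 ± 1464 CPM (2771 ± 384 without UK 5) and the Trog mean 269.9 ± 73.6 CPM, beside 9003 ± 427 CPM in TGFb and 1942 ± 146 CPM in FB (SD, n = 5). ACTA2 may share reads with the near-identical actins ACTG2 (4.48 [4.13]) and ACTC1 (5.18 [5.00]), so the level of each is uncertain. On the smooth muscle contractile list, 12 of 19 tested members were higher and 4 lower in UK (13 and 4 without UK 5, 12 and 5 by library totals), with a median log2 fold change of 1.78 (1.83 without UK 5). The tropomyosin TPM1 was at 5463, 4819, 5473, 5010.1 and 7183 CPM in UK and 376, 451, 557, 430.4 and 368 CPM in Trog (3.68 [3.57]), and the calponin CNN1 rose as well (2.65 [2.76]). Members that went the other way were the myosin light chain kinase MYLK (-1.21 [-0.94]), the muscle coactivator MYOCD (-3.17 [-3.00]) and the filament gene DES (-2.08 [-1.90]). MYLK was at 66.1, 45.6, 58.2, 58.8 and 6.86 CPM in UK, with UK 5 far lower, and at 115, 99.5, 112, 123 and 98.8 CPM in Trog. It did not pass in a fit of only UK and Trog (adjusted p = 0.053). MYOCD and DES stayed under 1 CPM in every library of both groups.

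Most tested collagen genes rose. In the fibrillar and network collagen list, 14 of 18 tested members were higher and 0 lower in UK (15 and 0 without UK 5, 13 and 2 by library totals), with a median log2 fold change of 1.99 (2.08 without UK 5). These genes took 7.08% of all counts in UK 5 and 12.4% to 14.2% in the other UK libraries, but 1.48% to 1.76% in Trog. TGFb libraries gave 10.5% to 12.1% and FB libraries 9.35% to 10.6%. COL1A2, the second chain of type I collagen, was at 46641, 43203, 44763, 45413 and 33025 CPM in UK, against 853, 1359, 1791, 1259.7 and 1336 CPM in Trog (5.01 [5.09]). With the genes named above, both chains of type I collagen and that of type III rose by a log2 fold change of 5.01 or more with and without UK 5.

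Genes that fold, modify and crosslink collagen followed. Of that list, 18 of 20 tested members were higher and 1 lower in UK (18 and 2 without UK 5, 14 and 3 by library totals), with a median log2 fold change of 1.27 (1.22 without UK 5). The prolyl hydroxylase P4HA2 was at 1027, 836, 916, 852 and 929 CPM in UK, against 284, 279, 279, 289 and 298 CPM in Trog (1.67 [1.67]). UK 5 lay within the range of the other UK libraries here. The partner gene P4HA1 (1.27 [1.20]) and the collagen chaperone SERPINH1 (1.31 [1.32]) rose too. P4HA3, the remaining prolyl hydroxylase of this family on the list, was lower in UK (-0.72 [-0.92]), although UK 5, at 24.3 CPM, overlapped the Trog range.

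Matricellular genes, whose products sit in the matrix and act on cells, were higher in UK for 18 of 21 tested members and lower for 0 (20 and 0 without UK 5, 14 and 1 by library totals), with a median log2 fold change of 1.28 (1.31 without UK 5). SPARC, a collagen-binding glycoprotein, was at 35894, 32682, 33383, 31492 and 48385 CPM in UK, against 1084, 1413, 1672, 1312 and 1424 CPM in Trog (4.72 [4.60]). The elastic fibre genes FBLN5 (3.75 [3.60]) and EFEMP2 (3.27 [2.92]) rose as well. TNC, tenascin C, was at 906, 627, 846, 782 and 170.3 CPM in UK, with UK 5 lowest, and at 17.6, 26.5, 49, 28.2 and 26.1 CPM in Trog (4.50 [4.75], picked after its values were seen). Both drug groups stood far below the 7039.7 ± 756 CPM of TGFb.

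Most tested genes on the list of keratocyte genes and proteoglycans were also higher in UK. Of 9 tested members 8 were higher and 0 lower (8 and 0 without UK 5, 7 and 1 by library totals, median 1.45 and 1.69 without UK 5). The list could not show KERA, BGN, PTGDS, CHST6 and AQP1, which were not in the files, or CD34 and B3GNT7, which were under the filter. LUM, the keratan sulphate proteoglycan lumican, was at 3032, 2927, 2885, 2784 and 6716 CPM in UK, against 226, 234, 336, 219 and 198 CPM in Trog (3.92 [3.58]). UK 5 was more than 2-fold above the other UK libraries. The mean of UK exceeded that of TGFb (859 ± 69.3 CPM) and FB (189 ± 9.02 CPM). Osteoglycin, OGN, which also lies within CENPP, rose by 6.32 [6.45], and ALDH3A1, an aldehyde dehydrogenase that is a crystallin of the cornea, by 4.53 [4.00].

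Matrix-degrading enzymes were split. Among metalloproteinases and inhibitors, 5 of 16 tested members were higher and 8 lower in UK (7 and 9 without UK 5, 4 and 9 by library totals), with a median log2 fold change of -0.51 (-0.69 without UK 5). The aggrecanase ADAMTS5 was at 3.06, 2.84, 2.78, 4.06 and 0.64 CPM in UK, against 134, 109.5, 98, 139.7 and 104 CPM in Trog (-5.40 [-5.19]), and no UK library came near Trog. Another aggrecanase, ADAMTS4 (-3.35 [-3.39]), and stromelysin-3, MMP11 (-2.69 [-2.63]), were lower too. Higher in UK were the plasminogen activator PLAU (2.24 [2.21]), MMP19 (2.17 [2.36]) and the inhibitor TIMP2 (1.77 [1.45]).

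Genes of the TGF-beta pathway went both ways: 8 of 26 tested members were higher and 10 lower in UK (12 and 12 without UK 5, 6 and 12 by library totals, median -0.18 and 0.09 without UK 5). With all libraries this was near the background of 32.9% higher and 28.2% lower over all tested genes. TGFBR2, the type II receptor, was at 1712, 1636, 1736, 1694 and 1488 CPM in UK, against 511, 485, 526, 516 and 449 CPM in Trog (1.73 [1.77]), and also stood above the 882 ± 20.5 CPM of TGFb. The ligand BMP4 (2.75 [2.67]) and follistatin, FST, which binds activins (3.77 [3.10]), rose. The SMAD corepressor TGIF1 (-1.81 [-1.77]) and the ubiquitin ligase SMURF2 (-1.27 [-1.13]) fell. For the targets of YAP and TEAD, which read out cell stretch, 10 of 24 tested members were higher and 4 lower in UK (15 and 4 without UK 5, 6 and 5 by library totals, median 0.47 and 0.67 without UK 5). ANKRD1 was at 30.1, 17.4, 31, 31 and 74.1 CPM in UK, highest in UK 5, and at 0.773, 0.808, 3.94, 1.94 and 0.368 CPM in Trog (4.53 [4.10]). It had been at 1870.5 ± 182 CPM in TGFb and 249.8 ± 18.8 CPM in FB, so both drug groups lay below both. NUAK2 rose (1.23 [1.01]) and AJUBA (-1.65 [-1.44]) and AMOTL1 (-0.75 [-0.69]) fell.

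**Figure D4:**
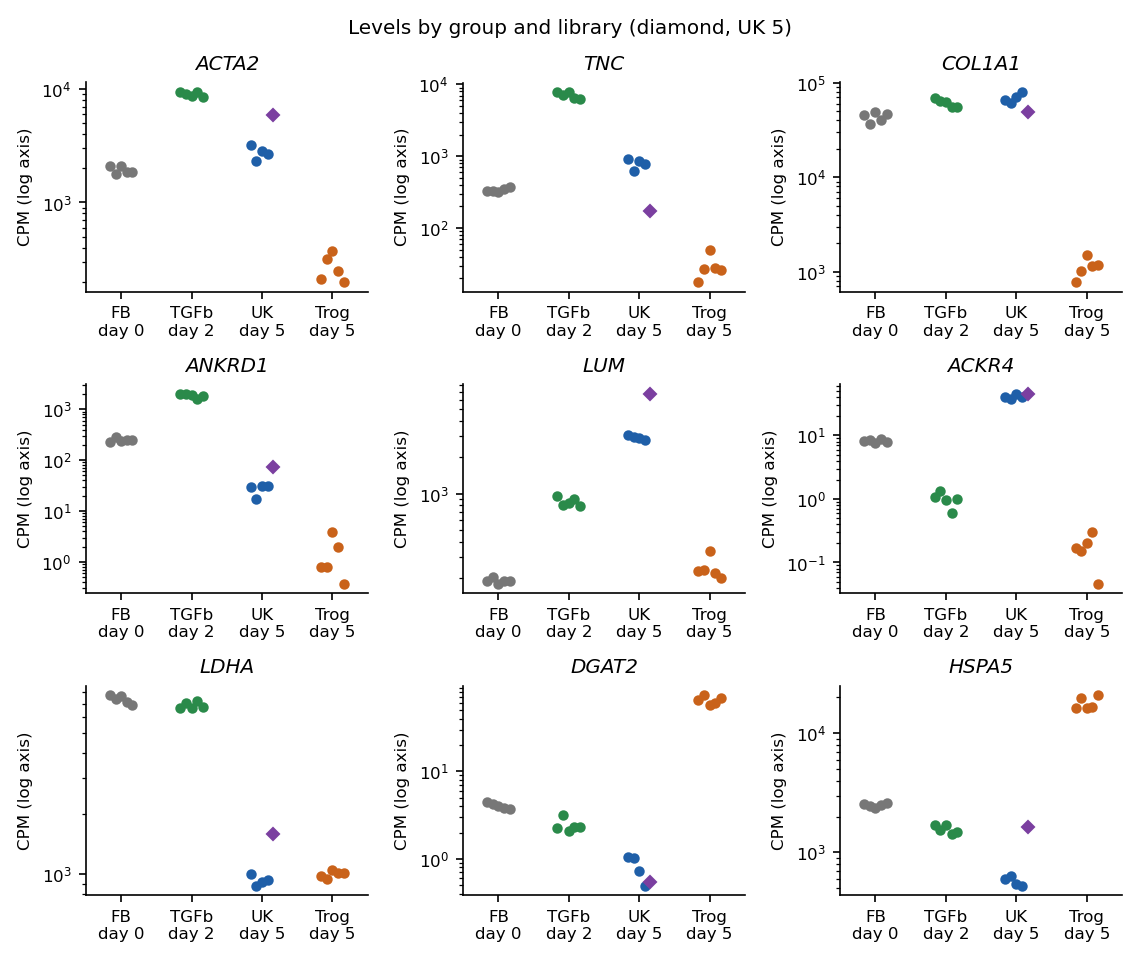
CPM of 9 genes in every FB, TGFb, UK and Trog library on log axes, in order of harvest, with UK 5 as a diamond. ACTA2 and COL1A1 were lowest in Trog, LUM and ACKR4 were highest in UK, LDHA was alike in UK 1 to 4 and Trog, and DGAT2 and HSPA5 were highest in Trog.

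Most tested cholesterol synthesis genes were higher in UK. In the cholesterol synthesis and uptake list, 15 of 20 tested members were higher and 1 lower in UK (18 and 1 without UK 5, 15 and 2 by library totals), with a median log2 fold change of 1.81 (1.54 without UK 5). The sterol reductases DHCR7 and TM7SF2 rose. DHCR7 was at 67.1, 61.1, 69.8, 68 and 57.9 CPM in UK, against 17.1, 18.1, 17, 16.9 and 12.8 CPM in Trog (1.99 [2.02]), and TM7SF2 at 204, 165, 194, 186 and 357 CPM in UK, against 20.4, 32.3, 29.7, 22.9 and 21 CPM in Trog (3.13 [2.89]). HSD17B7, another enzyme of the route, rose by 1.86 [1.93]. STARD4, a sterol carrier, was the single member that fell (-0.74 [-0.92]). UK 5, at 35 CPM, overlapped Trog for it.

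In fatty acid synthesis, 11 of 18 tested members were higher and 4 lower in UK (13 and 4 without UK 5, 8 and 5 by library totals, median 0.77 and 0.79 without UK 5). FASN, the fatty acid synthase, was at 1222, 1204, 1445, 1751 and 485 CPM in UK, against 223, 292, 261, 273 and 229 CPM in Trog (2.26 [2.46]). UK 5 was far below the other UK libraries but above all Trog libraries. The desaturase FADS2 (2.36 [2.54]) and ACSS2, which turns acetate into acetyl-CoA (1.00 [1.08]), rose, and besides DGAT2 the elongase ELOVL4 fell (-3.71 [-3.78]). In fatty acid oxidation, 11 of 24 tested members were higher and 5 lower in UK (11 and 8 without UK 5, 5 and 10 by library totals, median 0.32 and 0.03 without UK 5). HADHA (0.65 [0.67]) and HADH (0.87 [0.78]), enzymes of the mitochondrial spiral, rose. ACSL5 (-3.12 [-3.38]) and ACSL4 (-1.96 [-1.76]), synthetases that activate fatty acids as ACSL1 does, fell. ACSL1 itself was at 58.3, 64.3, 58.7, 57.9 and 13.9 CPM in UK, lowest in UK 5, and at 329.8, 335, 309, 336 and 341 CPM in Trog.

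For genes of pyruvate entry and fate, 11 of 22 tested members were higher and 5 lower in UK (13 and 5 without UK 5, 7 and 10 by library totals, median 0.29 and 0.28 without UK 5). The D-lactate dehydrogenase LDHD was at 4.82, 5.79, 5.19, 4.2 and 9.7 CPM in UK, against 0.344, 0.577, 0.852, 0.559 and 0.461 CPM in Trog (3.37 [3.14]). The malic enzyme ME3 (0.93 [0.82]) and the pyruvate dehydrogenase subunit DLAT (0.70 [0.80]) rose. For DLAT UK 5, at 16.65 CPM, overlapped the Trog range, and DLAT did not pass with library totals alone (0.26). Both kinases of pyruvate dehydrogenase that the rule named fell, PDK4 with the value above and PDK1 with -1.30 [-1.25], as did the alanine transaminase GPT2 (-1.72 [-1.56]). SLC16A3, the lactate exporter, was lower in UK (-0.95 [-0.92]), and both drug groups (30.9 ± 3.26 CPM in UK and 59.6 ± 7.07 CPM in Trog) lay below the 374 ± 33.2 CPM of TGFb.

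On the glycolysis list, 5 of 16 tested members were higher and 6 lower in UK (5 and 8 without UK 5, 3 and 9 by library totals, median -0.04 and -0.29 without UK 5). Over all tested genes 32.9% were higher and 28.2% lower, so the counts with all libraries lay near the background. ALDOC, an aldolase, rose (2.14 [2.05]), and so did the enolase ENO1, by 1.23 [0.88]. PFKFB3, which makes the activator of phosphofructokinase (-1.31 [-1.15]), and the glucose transporter SLC2A1 (-0.82 [-0.69]) fell. LDHA, the lactate dehydrogenase, was at 1002, 880.4, 918, 939.9 and 1585 CPM in UK, against 981, 952, 1051, 1010.4 and 1018 CPM in Trog. Apart from UK 5 the groups overlapped, and the 95% interval of the fold change was -0.16 to 0.33 (-0.24 to 0.04 without UK 5), inside 0.5 log2 units both ways. With library totals alone LDHA was lower in UK (-0.40, edgeR quasi-likelihood, BH-adjusted p = 0.000405). The mean of TGFb was 6868 ± 269 CPM. In all, the 95% interval of the fold change lay inside ± 0.5 for 1774 of 10699 genes (16.6%) with all libraries. Without UK 5 it did so for 3710 of 10798 (34.4%). Given TMM scaling, these are the genes for which the drugs gave levels shown to be close. Close does not mean unchanged, since 366 of the 1774 and 1837 of the 3710 were also called. By library totals 1287 genes had such an interval.

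In the TCA cycle 7 of 18 tested members were higher and 2 lower in UK (10 and 5 without UK 5, 3 and 5 by library totals, median 0.31 and 0.16 without UK 5). The succinyl-CoA ligase gene SUCLA2 rose (0.68 [0.64]). MDH1, the cytosolic malate dehydrogenase, was at 144, 135, 128, 115 and 558 CPM in UK, against 74.7, 74, 90.5, 68.3 and 78.2 CPM in Trog (1.48 [0.76]), so UK 5 carried much of its rise. IDH1, the cytosolic isocitrate dehydrogenase, fell (-0.83 [-0.94]). Of genes for glutamine and amino acid entry to mitochondria, 7 of 18 tested members were higher and 6 lower in UK (8 and 8 without UK 5, 4 and 10 by library totals, median 0.03 and -0.05 without UK 5). The aspartate-glutamate carrier SLC25A12 was higher (0.93 [0.86]). The transporter chains SLC7A5 and SLC3A2, which bring leucine and other large amino acids into the cell, were lower: SLC7A5 at 19.1, 29.3, 18.3, 18.1 and 2.93 CPM in UK, against 201, 200.2, 176, 184 and 173 CPM in Trog (-3.40 [-3.14]), and SLC3A2 with -2.70 [-3.02]. The branched-chain transaminase BCAT1 fell as well (-2.57 [-2.44]).

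Nuclear genes of oxidative phosphorylation gave the clearest dependence on UK 5. With all libraries, 30 of 32 tested members were higher and 0 lower in UK, with a median log2 fold change of 1.10. Without UK 5, 27 were higher and 3 lower, with a median of 0.36, and UK 5 itself lay a median of 2.07 log2 units above the other UK libraries for this list. By library totals 15 were higher and 1 lower, with a median of 0.57. The list took 0.248% to 0.297% of all counts in UK 1 to UK 4 and 0.842% in UK 5, against 0.265% to 0.308% in Trog, so that apart from UK 5 the unscaled shares overlapped. ATP5F1A, a subunit of ATP synthase, was at 411, 366, 361, 336 and 1226 CPM in UK, against 218, 217, 230.3, 207 and 221 CPM in Trog (1.30 [0.75]). UK 1 to UK 4 lay above Trog by themselves. The complex I gene NDUFS4 (1.62 [0.88]) and the complex IV gene COX8A (0.99 [0.64]) rose with and without UK 5. NDUFA2, another complex I gene, was at 28.8, 31.9, 26.7, 25.5 and 221 CPM in UK and 30.5, 34.3, 32.6, 30.4 and 33.4 CPM in Trog, and its call turned round, with 1.04 ± 0.414 with all libraries and -0.19 ± 0.0651 without UK 5 (edgeR quasi-likelihood, BH-adjusted p = 0.0335 and 0.0095). The complex III genes CYC1 (-0.02 [-0.60]) and UQCRC1 (0.29 [-0.12]) were likewise lower without UK 5 and not called with it. These 3 genes were named after their values were seen. Of regulators of mitochondrial biogenesis and turnover, 4 of 19 tested members were higher and 8 lower in UK (4 and 11 without UK 5, 1 and 14 by library totals, median -0.21 and -0.20 without UK 5). The mitochondrial helicase TWNK (-0.92 [-0.75]), which overlaps MRPL43, the transcription factor NRF1 (-0.51 [-0.48]) and the mitophagy receptor BNIP3L (-0.69 [-0.74]) fell. TFB1M, a methyltransferase of the mitochondrial ribosome, rose (1.08 [0.52], highest in UK 5), and the mitophagy kinase PINK1, which overlaps DDOST, rose by 0.39 [0.26] but stood at -0.08 with library totals alone.

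Most tested genes of the unfolded protein response of the endoplasmic reticulum (ER) were lower in UK. Of 25 tested members 0 were higher and 18 lower, without UK 5 all 25 were lower, and by library totals 0 were higher and 21 lower, with a median log2 fold change of -1.06 (-1.18 without UK 5). HSPA5, the main ER chaperone, also called BiP, was at 596, 639, 546, 528 and 1622 CPM in UK, against 16374, 19694, 16178, 16731 and 20784 CPM in Trog. All UK libraries were far below all Trog libraries, with UK 5 the highest of its group. The fold change was -4.51 ± 0.267, and -4.96 ± 0.151 without UK 5. In Trog its level exceeded those of TGFb (1572 ± 127 CPM) and FB (2489 ± 88.1 CPM), and in UK 1 to UK 4 it lay below both. The co-chaperone DNAJB9 was at 28.2, 33.7, 28.5, 26.8 and 27.7 CPM in UK, against 253, 279, 245, 248 and 282 CPM in Trog (-3.17 [-3.16]). The chaperones HYOU1 (-2.88 [-2.95]) and HSP90B1 (-2.72 [-2.87]) fell likewise. HSPA5 was picked after its values were seen.

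In the related list of ATF4 and amino acid stress response genes, 3 of 25 tested members were higher and 17 lower in UK (3 and 21 without UK 5, 0 and 21 by library totals), with a median log2 fold change of -1.08 (-1.25 without UK 5). ATF3, a stress-induced transcription factor, was at 7, 7.89, 7.71, 7.81 and 7.59 CPM in UK, against 97.7, 113, 75.6, 86.1 and 121 CPM in Trog (-3.70 [-3.69]). The pseudokinase TRIB3 was at 10.7, 16.8, 10.2, 14.2 and 39.4 CPM in UK, highest in UK 5, and at 268, 434, 299, 277 and 313 CPM in Trog (-4.14 [-4.61]). DDIT3, the transcription factor CHOP, was at 11.1, 18.1, 11.7, 14.8 and 63.2 CPM in UK and 139.7, 214, 127, 129 and 238 CPM in Trog (-2.85 [-3.60]), with UK 5 over 3 times the other UK libraries but under all of Trog. DDIT3 overlaps MARS1 in the cat annotation. MTHFD2 of mitochondrial folate metabolism (-2.19 [-2.23]) and CTH, which makes cysteine (-2.60 [-2.61]), fell too. Members that rose did so by less, STC2, stanniocalcin 2, by 0.53 [0.64] and the lipoprotein receptor VLDLR by 0.51 [0.70], and neither passed with library totals alone. VLDLR also did not pass without UK 1 (0.36, adjusted p = 0.0673) or in a fit of only UK and Trog. UK 5 lay within the Trog range for STC2, at 50.4 CPM, and under all Trog libraries for VLDLR, at 26.9 CPM. TRIB3 and DDIT3 were picked after their values were seen.

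Among NRF2 antioxidant genes, 4 of 18 tested members were higher and 9 lower in UK (4 and 11 without UK 5, 1 and 13 by library totals, median -0.28 and -0.35 without UK 5). FTH1, the heavy chain of ferritin, was at 2627, 3045, 2431, 2409.8 and 3691 CPM in UK, against 11113, 9612, 10373, 9170.0 and 9636 CPM in Trog (-1.81 [-1.92]). Both subunits of the enzyme that starts glutathione synthesis fell, GCLC with -1.55 [-1.46] and GCLM at 40.2 ± 3.01 CPM in UK and 80.3 ± 5.24 CPM in Trog (SD, n = 5), while PGD of the pentose phosphate pathway rose (1.09 [0.87]). For lysosome and autophagy genes, 12 of 29 tested members were higher and 7 lower in UK (12 and 10 without UK 5, 9 and 13 by library totals, median 0.32 and 0.05 without UK 5). The beta-galactosidase GLB1 (1.19 [1.04]) and the proton pump subunit ATP6V0D1 (0.97 [0.87]) rose. Its paralog ATP6V0D2, at 3.39, 4.9, 3.6, 3.16 and 2.38 CPM in UK, against 41.2, 44.5, 31.7, 44 and 53.3 CPM in Trog (-3.60 [-3.51]), and the cholesterol exporter NPC1 (-0.94 [-0.75]) fell. In the hypoxia response, 5 of 17 tested members were higher and 9 lower in UK (5 and 10 without UK 5, 5 and 10 by library totals, median -0.47 and -0.33 without UK 5). HIF1A itself (1.53 [1.60]) and the lysyl oxidase LOX (2.51 [2.71]) were higher, and the vessel growth factor VEGFA (-2.88 [-2.64]) and the repressor BHLHE40 (-2.52 [-2.37]) lower.

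Of interferon response genes, 3 of 20 tested members were higher and 7 lower in UK (3 and 9 without UK 5, 2 and 12 by library totals), with a median log2 fold change of -0.09 (-0.30 without UK 5). IRF1, a transcription factor of the response, was at 6.4, 6.42, 7.66, 8.62 and 5.49 CPM in UK, against 84.8, 105, 69.9, 81.4 and 77.4 CPM in Trog (-3.59 [-3.52]). IFIT2 was nearly absent in UK, at 0.0394 ± 0.0426 CPM, and at 1.02 ± 0.121 CPM in Trog, whereas IFI44 was higher in UK (3.07 [3.28]), so this list did not move as one. Of the inflammatory mediators, 3 of 15 tested members were higher and 11 lower in UK (3 and 11 without UK 5, 3 and 12 by library totals, median -0.77 and -0.94 without UK 5). The prostaglandin synthase PTGS2 (-2.37 [-2.18]), the adhesion molecule VCAM1 (-4.35 [-4.29]) and the chemokine CXCL8 (-1.54 [-1.71]) fell. IL33, a cytokine kept in the nucleus, was at 80.9, 66.5, 94.4, 87.2 and 38.2 CPM in UK, against 3.44, 3.19, 3.33, 4.89 and 2.81 CPM in Trog (4.38 [4.53]), and TNFSF10, the death ligand TRAIL, rose as well (3.94 [4.13]).

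The aryl hydrocarbon receptor senses aromatic compounds. On the list of its response, 4 of 7 tested members were higher and 0 lower in UK (6 and 0 without UK 5, 3 and 1 by library totals, median 1.21 and 1.51 without UK 5). The tested members hold ARNT and NFE2L2 beside targets of the receptor, and ALDH3A1 is counted both here and among the keratocyte genes. CYP1A1, an oxidase that is the classical target, was at 119.5, 189.8, 146, 112 and 175 CPM in UK, against 4.25, 6.15, 11, 6.08 and 4.93 CPM in Trog (4.51 [4.45]). The mean of TGFb was 0.486 ± 0.142 CPM. CYP1B1 was at 395, 454, 419.9, 497 and 62.5 CPM in UK, lowest in UK 5, and at 16.8, 14.6, 25.8, 16.3 and 13.9 CPM in Trog (4.39 [4.66]).

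Of IGF and growth factor genes, 16 of 27 tested members were higher and 7 lower in UK (15 and 7 without UK 5, 14 and 8 by library totals, median 0.86 and 0.78 without UK 5). Receptors were among the rises, with MET for hepatocyte growth factor (1.71 [1.74]) and GHR for growth hormone (2.52 [2.67]), and so was the binding protein IGFBP4 (2.31 [1.99]). FGF1 was at 1.15, 0.833, 0.926, 1.4 and 1.28 CPM in UK, against 14.6, 20.7, 15.1, 14.8 and 14.6 CPM in Trog (-3.84 [-3.87]), and the receptor FGFR2 fell too (-2.29 [-2.12]).

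Of the cell cycle lists, S phase held more lower than higher members, and the G2 and M list was even with all libraries. In S phase, 5 of 26 tested members were higher and 12 lower in UK (4 and 14 without UK 5, 4 and 17 by library totals, median -0.40 and -0.41 without UK 5). For the G2 and M phases, 6 of 25 tested members were higher and 6 lower in UK (6 and 8 without UK 5, 3 and 14 by library totals, median -0.15 and -0.14 without UK 5). The replication genes CDC6 (-2.59 [-2.73]) and DTL (-1.96 [-2.02]) and the spindle genes TPX2 (-1.73 [-1.72]) and PRC1 (-1.05 [-0.96]) were lower, while the transcription factor E2F1 (0.97 [0.99]), the reductase subunit RRM1 (1.36 [1.01]), ECT2 of cytokinesis (1.17 [1.31]) and the kinetochore gene CENPF (2.76 [2.99]) were higher. CENPF was at 0.981 ± 0.528 CPM in UK and 0.155 ± 0.138 CPM in Trog, and its groups overlapped through UK 5. For growth arrest and senescence, 7 of 14 tested members were higher and 3 lower in UK (7 and 5 without UK 5, 5 and 7 by library totals, median 0.16 and 0.21 without UK 5). Cyclin D1, CCND1 (2.15 [1.93]), and GADD45B (1.97 [1.44]) rose, and the stress-induced genes GADD45A (-2.77 [-3.23]) and SESN2 (-1.76 [-1.87]) fell. On the list of apoptosis regulators, 4 of 16 tested members were higher and 8 lower in UK (5 and 8 without UK 5, 2 and 10 by library totals, median -0.27 and -0.22 without UK 5). The survival gene BCL2 (1.63 [1.88]), whose UK 5 value overlapped Trog, and DIABLO (0.46 [0.45]) rose. DIABLO did not pass with library totals alone. APAF1, which forms the apoptosome, fell (-1.83 [-1.67]).

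**Figure D5:**
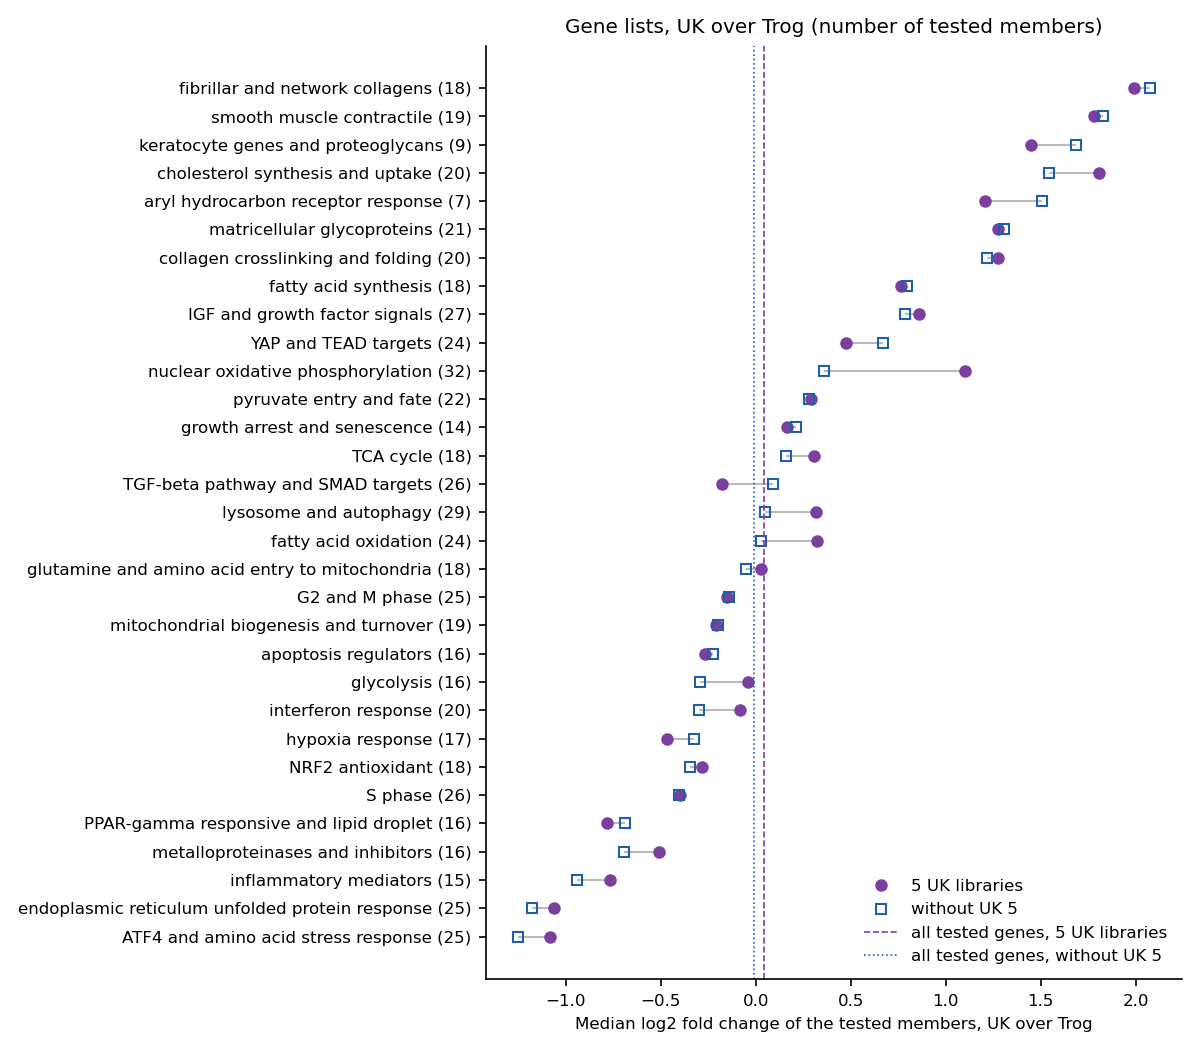
Median log2 fold change, UK over Trog, of the tested members of 31 gene lists with 5 UK libraries (filled circles) and without UK 5 (open squares), ordered by the value without UK 5, beside the medians of all tested genes (vertical lines). The collagen list had the highest and the ATF4 list the lowest median both ways, and the widest gap between the 2 marks is that of oxidative phosphorylation, at 1.10 and 0.36.

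The level before the drugs gives a scale for these differences. Of the 2269 genes called and at least 2-fold changed both with and without UK 5, 1165 higher and 1104 lower, the UK mean without UK 5 was nearer than the Trog mean to the TGFb mean for 1659 (73.1%), and among all tested genes for 6718 (62.8%). The nearer group was counted on mean log2 CPM. Since the TGFb cells were 3 days younger and had no later drug, the counts say which group lay closer and not which drug moved a gene.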

How the data were processed

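Stranded libraries of polyadenylated RNA were made for 25 samples, 5 per group, per the labels' protocols. The authors deposited, for each sample, a table of raw integer counts per gene symbol. STAR 2.7.9a, Salmon 1.5.2, fastp 0.23.1, featureCounts and Subread 2.0.1 are listed, with no role, per the submitters' processing notes. Not given in the sources used here are the genome build, the annotation and the strand setting of the counting. Each table held 13949 symbols, 13111 with a count in any sample. Genomic spans and overlaps came from RefSeq genes of F.catus_Fca126_mat1.0, a cat assembly, where 10619 of 10699 tested genes were found by symbol, and no coordinates are given since the builds may differ.

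The analysis used edgeR 4.0.16 in R 4.3.3: TMM scaling, edgeR's expression filter (minimum count 10, minimum total 15), 1 mean per group over all 25 libraries, no block for the replicate number, and the quasi-likelihood F test for UK minus Trog, with BH adjustment over all tested genes and a threshold of 0.05. SE is the size of the log2 fold change divided by sqrt(F). CPM are counts per 1 M of the TMM-scaled library total. Gene lists (31 lists with 754 genes, of which 632 were in the files and 597 tested) are described by counts and medians of the tested members, and members under the filter are left out. Members, lists and alternatives were chosen with earlier results of these data known. The rule for named genes takes ACTA2, MPC1, MPC2 and PPARG, the 8 largest rises and 8 largest falls among called genes whose groups do not overlap and whose higher group averages 10 CPM or more, per list and direction up to 3 called members with the lowest p (2 members where none is called), and the genes that set UK 5 apart. Some genes it selects are not reported here, and names outside it are marked.

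Alternatives were RLE and upper quartile scaling, library totals alone, no filter, a stricter filter (1 CPM in 5 libraries), robust dispersions, DESeq2 1.42.0, limma 3.58.1 voom with sample weights, a fit of only UK and Trog with and without UK 5, a replicate block, and each UK and Trog library left out in turn. No 2 libraries of a group agreed within sampling noise (lowest chi-square per degree of freedom 3.2). Floors are 3 counts over a group. Depth was 14.8 to 25.2 M counts per UK or Trog library, and counting intervals cover counting error only. Promoter motifs were not searched and no sequences are printed, since no sequence table was used here. Figures were drawn with matplotlib 3.10.9.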

Additional observations from a re-analysis of the deposited data

Results flagged for a closer look

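In 77 of 346 groups of 5 libraries (each of the 169 genes described in the text, in UK and in Trog, and 4 measures of the libraries), the highest or the lowest library was farther from the rest than Dixon's 95% limit for 5 values allows. Chance flags about 1 in 20 groups. UK 5 was the library set apart in most of them, as the highest in 42 and as the lowest in 18. The lowest include the share of counts taken by the 10 highest genes, which was 16.2% in UK 5 against 23.0% to 25.8% in the other UK libraries.

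UK 5 was set apart as the highest of the UK libraries, with these CPM, for ACTA2 (5958), MPC1 (75.8), MPC2 (266), TPM1 (7183), SPARC (48385), EFEMP2 (1556), LUM (6716), ALDH3A1 (26.9), TIMP2 (2232), ANKRD1 (74.1), NUAK2 (18.9), FST (227), FABP4 (6.22) and LDHD (9.7). The same held for ME3 (82), ENO1 (10140.1), MDH1 (558), ATP5F1A (1226), NDUFS4 (273), COX8A (93.4), TFB1M (41.7), PINK1 (194), TM7SF2 (357), STARD4 (35), HYOU1 (294), HSP90B1 (1500.4), PGD (1143) and GLB1 (702). It held further for RRM1 (439), CCND1 (86.2), GADD45A (81.8), IGFBP4 (3328), HSPA5 (1622), TRIB3 (39.4), DDIT3 (63.2), LDHA (1585), CYC1 (199), PTH2R (148), CD38 (64.7), NDUFA2 (221), UQCRC1 (356) and LSM8 (139). As the lowest, UK 5 was set apart for OMD (11.6), TENM4 (0), MMP19 (15.8), AJUBA (11.5), SMURF2 (51.9), ACSL1 (13.9), TWNK (6.04), FADS2 (107), ACSL4 (31.9) and NPC1 (101). It was also lowest for VEGFA (4.67), IFI44 (4.21), APAF1 (16.4), CYP1B1 (62.5), GHR (19.2), COL1A2 (33025) and PDE4B (0.0915). Without this library the fold changes between UK and Trog are those in square brackets above.

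Other libraries stood apart for single genes. UK 1 was highest for KNG1 (0.0547) and SERPINH1 (1732), all in CPM. UK 2 was highest for DNAJB9 (33.7) CPM. Trog 1 was highest for ELOVL4 (11.4) and DTL (2.1), all in CPM. Trog 2 was highest for FGF1 (20.7) and TRIB3 (434), all in CPM. Trog 3 was highest for OMD (2.56), OGN (0.365), LUM (336), SLC25A12 (32.7), CYP1A1 (11) and CYP1B1 (25.8), all in CPM. Trog 3 was lowest for ARFGEF3 (15.2) CPM. Trog 5 was lowest for DHCR7 (12.8), HIF1A (652) and SESN2 (78.8), all in CPM. Trog 3 thus gave the highest level of several matrix genes and of both CYP1 oxidases within Trog, and still lay below every UK library for each of them.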

How the results depend on the processing

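Of 169 genes described in the text, 161 had a value under all 21 alternatives, and 150 of these kept their direction and their side of the threshold under each. Most of the 169 were named for a large fold change or a low p in the main fit. Their agreement was thus largely set by that choice and does not measure that of all tested genes. The other 8 had none under at least 1 alternative (DESeq2, a fit of only UK and Trog or the stricter filter), and 5 of them kept both wherever they had one. With library totals alone, 1790 genes were higher and 5339 lower, and 1287 had a 95% interval within 0.5 log2 units. A fit of only UK and Trog called 4375 genes, 2323 higher and 2052 lower, and 954 had a 95% interval within 0.5 log2 units. That last count was 3612 in the fit of only UK and Trog without UK 5, 3710 in the common fit without UK 5 and 3780 with limma voom and sample weights, where UK 5 got a weight of 0.00877. Leaving out 1 library at a time gave 6144 to 8111 called genes, 3310 to 4017 higher, 2834 to 4094 lower, 1555 to 3710 within 0.5 log2 units and 2574 to 3122 at least 2-fold changed, with the upper ends of the first 4 ranges reached without UK 5. DESeq2 called 6558 genes. The replicate block, a term for the replicate number, gave 6326 called, 3307 higher and 3019 lower, 1715 within 0.5 log2 units and 2824 at least 2-fold changed. Same-numbered UK and Trog libraries deviated together with correlations of -0.13 to 0.33, and for 1 of 5 numbers the own partner was the closest, so the numbers are not taken as pairs.

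With library totals alone the sign turned for PINK1 (-0.084), LDHA (-0.40) and UQCRC1 (-0.22), and MPC2, DLAT, STC2, VLDLR, DIABLO, NDUFA2, LSM8, ACAD11 and CENPP no longer passed. In the fit of only UK and Trog without UK 5, the signs turned for LDHA (-0.093), NDUFA2 (-0.19), UQCRC1 (-0.12) and LSM8 (-0.21), and with limma voom and sample weights for LDHA (-0.11), NDUFA2 (-0.21), UQCRC1 (-0.13) and LSM8 (-0.22). Leaving out 1 library at a time gave CYC1 -0.60 to 0.11, NDUFA2 -0.19 to 1.25, LSM8 -0.21 to 1.27, LDHA -0.10 to 0.15 and UQCRC1 -0.12 to 0.39. NDUFA2 and LSM8 also lost their call under the replicate block and without any 1 Trog library. The cause of these changes was not tested. Apart from library totals, the balance of higher and lower members turned or became even for the TGF-beta, glycolysis, glutamine and G2 and M phase lists. Depth limits genes near the floor, such as KNG1, RSAD2, MYOCD and DES.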

Other observations

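Beyond the 8 largest rises, the next 8 in UK by the same rule, picked after their values were seen, again held matrix genes beside genes of other kinds. PTH2R, a receptor of the parathyroid hormone family, was at 90.4, 71.1, 80.2, 74.3 and 148 CPM in UK, against 1.5, 2.73, 3, 2.42 and 1.29 CPM in Trog (5.39 [5.15]). CD38, which breaks down NAD, was at 27.9, 19.3, 24.1, 19.5 and 64.7 CPM in UK, against 0.644, 1.35, 1.54, 0.448 and 0.645 CPM in Trog (5.05 [4.60]). UK 5 was the highest library for both. The others were the integrin-like matrix gene ITGBL1 (5.59 [5.80]), the actin ACTC1 and the collagen COL1A2 described above, the small GTPase RERG (5.10 [5.22]), the nuclear receptor NR2F1 (5.02 [4.88]) and the fibulin EFEMP1 (4.99 [5.13]). ITGBL1 (3.73 ± 0.273 CPM in TGFb) and RERG (0.35 ± 0.0504 CPM in TGFb) were thus far higher in UK, at 41.1 ± 15.7 and 16.4 ± 3.6 CPM (SD, n = 5), than they had been before the drug, while NR2F1 was lower in UK (18.8 ± 4.36 CPM) than in TGFb (29.2 ± 1.43 CPM). These levels of TGFb and UK were set side by side without a test.

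The next 8 falls held signalling and junction genes. CXCR4, a chemokine receptor, was at 0.109, 0.637, 0.36, 0.316 and 0.458 CPM in UK, against 21.1, 14.2, 16.6, 17.2 and 17.8 CPM in Trog (-5.52 [-5.56]). It overlaps THSD7B in the cat annotation. DERL3, an ER degradation gene, was at 0, 0.392, 0.411, 0.271 and 1.37 CPM in UK, against 14.1, 22.4, 20.2, 15.9 and 18.9 CPM in Trog (-5.42 [-6.03]). It overlaps SMARCB1. The others were ADAMTS5, described above, the desmosome gene PKP1 (-5.11 [-4.93]), the connexin GJB2 (-4.90 [-4.79]), the transcription factor TCF7 (-4.61 [-4.64]), the phosphodiesterase PDE4B (-4.60 [-4.36]) and the actin-binding gene AVIL (-4.59 [-4.72]), which overlaps TSFM. PKP1 and GJB2 are best known from epithelia. The epithelial markers KRT3, KRT12, TP63 and KRT18 were at 0 in both groups, and KRT5, KRT14, KRT15 and CDH1 were not in the files. Of the 2 tested epithelial markers, 1 was lower in UK with all libraries and 2 without UK 5. Whether epithelial cells had a part in these falls was not tested. Among these 16 genes the largest adjusted p was 2.26e-10 in edgeR's quasi-likelihood test with BH adjustment.

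The direction of the calls varied with gene span when UK 5 was kept. Of 5 equal bins of genomic span, in the bin of shortest genes 881 were higher and 414 lower in UK, and in the bin of longest genes 593 were higher and 679 lower. Without UK 5 these counts were 823 higher and 737 lower for the shortest and 831 higher and 805 lower for the longest. For LSM8, whose protein binds small nuclear RNA, UK 5 stood at 139 CPM beside 16.8 ± 0.647 CPM in UK 1 to UK 4 and 19.4 ± 1.37 CPM in Trog, and its fold change was 1.07 ± 0.428 with UK 5 and -0.21 ± 0.0816 without.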
